A study of Mus musculus with 16 samples.

Results

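Gemcitabine (GEM) given alone was compared with vehicle in subcutaneous pancreatic tumors, using 8 of the 16 arrays of the series. The 4 GEM arrays are those whose treatment label names GEM with the control IgG, and the 4 control arrays are those labelled with vehicle and the same control IgG. The other 8 arrays come from mice that received an anti-CD40 antibody, with or without GEM, and are used here only for the same drug contrast in that setting. All mice were C57BL/6-Ly5.1 and 6 to 12 weeks old, and each carried a flank tumor grown from PDA30364 cells injected in Matrigel. PDA30364 is a single line set up from 1 tumor of a genetically engineered mouse model that carries mutant p53, so tumor cells of both groups share that origin. Mice of the GEM group received 120 mg/kg on days 1, 5 and 12 of treatment. Isotype antibody followed in both groups, its 4 doses falling on day 3, day 4, day 6 and day 14. The host immune system was intact, and tumors were taken on days 22 and 23 after inoculation, a count that starts with the injection of cells and not with the first dose.

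GEM is a deoxycytidine analog that enters cells through nucleoside transporters, is phosphorylated by deoxycytidine kinase and stalls DNA synthesis. It also blocks ribonucleotide reductase, which supplies deoxynucleotides, and it is known to deplete some myeloid cells. Whole tumor RNA mixes cancer cells, fibroblasts, vessels and leukocytes, so fewer cells of a type and less RNA per cell cannot be told apart in these data.

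The values are log2 intensities of probe sets after robust multi-array averaging (RMA), and every difference below is the GEM mean minus the control mean on that scale. No probe set passed an adjusted p of 0.05 in limma, that is 0.0 percent of 45037, and the smallest adjusted p was 0.0606. With 1 array left out at a time, 0 to 8 passed, the 8 without control replicate 2, and the other settings that kept the adjusted p gave 0 to 6, the 6 with GEM replicates 3 and 4 averaged as 1 mouse. Before adjustment, a p under 0.05 was found for 1400 probe sets with higher and 1178 with lower values after GEM. With 1 probe set per gene the 18193 genes had a median difference of -0.0025, with 8953 above 0 and 9240 below, and the middle 98 percent lay between -0.46 and 0.39. An unadjusted p under 0.05 was reached by 607 genes with higher values (3.34 percent) and 541 with lower values (2.97 percent). All 4 GEM arrays lay above all 4 control arrays in 333 genes (1.83 percent) and below them in 334 (1.84 percent). A difference of at least 1 was seen in 17 genes upward and 26 downward. These shares are the background against which counts of named groups are given below.

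The arrays within a group were not equally alike. The SD of the difference between a pair of arrays was 0.255 to 0.353 among control arrays and 0.211 to 0.281 among GEM arrays, and the spread of the control group was the larger in 59.3 percent of genes. One animal number stands in the titles of both GEM replicate 3 and GEM replicate 4, although the protocol gives 4 mice per group. Their SD of difference was 0.26, the lowest of the pairs with GEM replicate 4 (0.26 to 0.281) and above the other GEM pairs (0.211 to 0.219), while the share of probe sets with identical values was 2.68 percent, the highest of 24 pairs of arrays within groups (1.89 to 2.68 percent). Whether both come from 1 animal cannot be told from these values. Genes of skin keratinocytes were high in control replicate 2, at a mean of 8.18 against 4.57 to 4.79 in the other control arrays, and in GEM replicate 4, at 6.12 against 4.66 to 4.82. Epithelial genes of the tumor list averaged 10.79 in control and 10.99 in GEM arrays. Pancreatic acinar genes averaged 5.65 and 5.57, with 8 of 9 lower after GEM and none at an unadjusted p under 0.05, and the elastase gene Cela1 read 9.40 and 9.80. Levels of different probe sets cannot be set against each other, so these values do not say how much of either tissue was present.

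Promoter sequences of the interferon and chemokine genes are printed first, because Ifit3 and Cxcl3 are among the leading lower and higher genes described next, and Ifit1 and Cxcl1 belong to their families. Interferons switch on genes through the interferon-stimulated response element, searched as its core GAAANNGAA on both strands of the 250 bases before the start site in RefSeq, build GRCm38.p6. The capitals mark matches, some of which overlap. Ifit3 and Ifit1 have 3 matches each.
Ifit3, chr19:34583364-34583393, plus strand: agtggtaagtTTCACTTTCctcttctggtt
Ifit3, chr19:34583407-34583436, plus strand: tTTCAGTTTCtactttcctcTTCCCTTTCa
Ifit1, chr19:34640773-34640802, plus strand: tgcaggcTTCAGTTTCACTTTCcagtctca
Ifit1, chr19:34640795-34640824, plus strand: cagtctcagtTTCAGTTTCtcactgctgac

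The matching promoter table held 15 of the 21 measured type I interferon genes, and 8 of them (53.3 percent) had a match, as against 7.16 percent of all 27025 promoters. Of 11 interferon gamma genes with a promoter, 10 (90.9 percent) had one. Both lists were made of genes already known to respond to interferon, and a match is a run of letters, not proof of a site. The promoter windows of Irf7 and Ifit2 had none.

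The chemokines that attract neutrophils are classical targets of NF-kappaB, whose motif was searched as GGGANNTTC on both strands of the same windows. Forward and reverse matches overlap in the stretches shown, where the capitals cover both.
Cxcl3, chr5:90786019-90786048, plus strand: agctgcgggGGGAATTTCCCcagcccgggc
Cxcl1, chr5:90891165-90891194, plus strand: ctgtactccGGGAATTTCCCtggcccggag

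The motif was present in 3 of 7 neutrophil-attracting chemokine genes with a promoter (42.9 percent), namely Cxcl1, Cxcl2 and Cxcl3, and in 3.17 percent of all promoters. Of these, Cxcl2 differed by only 0.04 between GEM and control. The motif was also present in 3 of 11 interferon gamma genes (27.3 percent), namely Cxcl9, Cxcl10 and Cd274, whose means lay lower after GEM. Here too a match is a run of letters, not proof of a site.

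The gene with the smallest p was Tcf24, a bHLH transcription factor. Its log2 intensity was 6.53, 6.48, 6.70 and 6.71 in the control arrays and 7.46, 7.57, 7.56 and 7.34 in the GEM arrays. The groups were clearly apart, with a difference of 0.88 (SE 0.08) and a limma adjusted p of 0.0606. B4galnt4, a glycosyltransferase that adds N-acetylgalactosamine, read 6.23, 6.47, 6.28 and 6.30 in control and 7.17, 7.14, 6.95 and 7.0 in GEM tumors. Its difference was 0.74 (limma adjusted p 0.0847). Without control replicate 2 both genes passed, each at a limma adjusted p of 0.0423.

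Etnppl, an enzyme that breaks down phosphoethanolamine, had the largest difference of the leading higher genes, at 0.99. Its values were 5.78, 5.45, 5.48 and 5.36 in control arrays and 6.42, 6.59, 6.34 and 6.67 after GEM. A second probe set of Etnppl differed by only 0.25. Cftr, the chloride channel of ductal epithelium, read 10.94, 11.15, 11.05 and 10.99 in control and 11.67, 11.55, 11.55 and 11.58 in GEM tumors, a difference of 0.56, and its second probe set gave 0.73. The remaining 8 of the 12 leading higher genes were Cxcl3 (0.96), Csgalnact1 (0.54), which starts chondroitin sulfate chains, Myzap (0.64), Shf (0.69), Ada (0.54), adenosine deaminase, AU021092 (0.56), Adgra1 (0.37) and Ggh (0.51), the hydrolase that trims folate polyglutamates. Their limma adjusted p ran from 0.158 to 0.384.

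At the lower end stood Ifit3, an interferon-induced gene of the antiviral response. Its values were 8.18, 7.80, 7.44 and 7.94 in control and 6.81, 7.01, 6.72 and 6.82 in GEM arrays, a difference of -1.0 (SE 0.14, limma adjusted p 0.218). Slco2a1, the transporter that takes up prostaglandins, read 10.17, 9.88, 9.84 and 9.47 in control and 8.91, 9.05, 9.11 and 8.91 after GEM. It differed by -0.84 (limma adjusted p 0.269), and all 4 of its probe sets lay between -0.64 and -0.88. The probe set with the lowest p of these, at -0.88 with a limma adjusted p of 0.109, passed without control replicate 4 (0.0439).

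Ephx2, soluble epoxide hydrolase, differed by -0.58 and Selenbp1, a selenium-binding oxidase, by -0.48. Akr1c19, an aldo-keto reductase, differed by -0.56. The other leading lower genes were Pkhd1 (-0.45), the fibrocystin of cilia in ducts, Drc1 (-0.35), a part of the ciliary dynein regulatory complex, Ccl4 (-0.37), Tcea3 (-0.56), Loxl4 (-0.35), a lysyl oxidase that crosslinks matrix, Kcnab1 (-0.46) and Cyth3 (-0.35). Limma adjusted p of the 12 leading lower genes ran from 0.218 to 0.54.

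**Figure D1:**
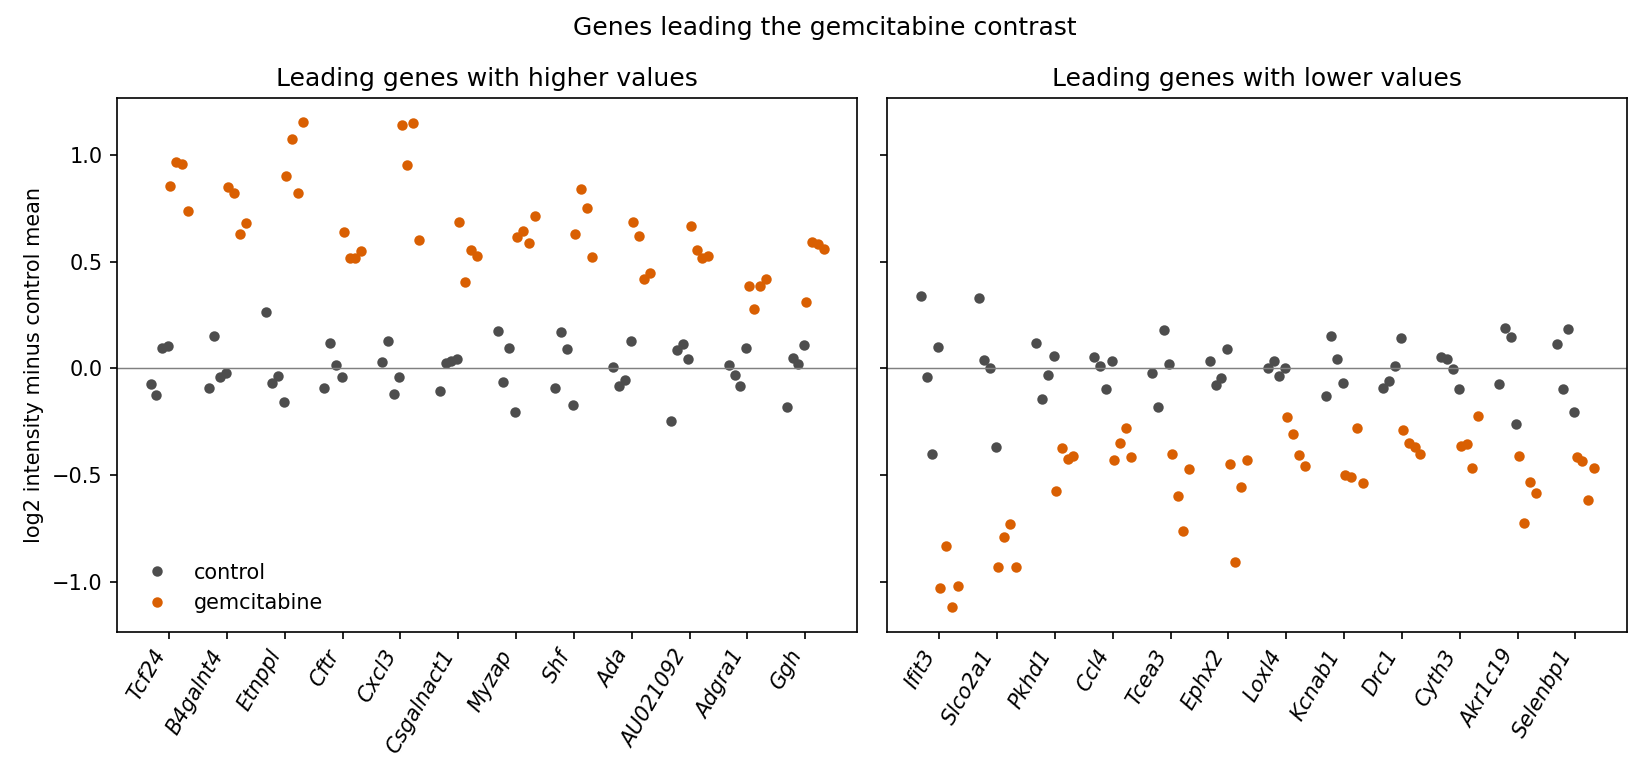
Log2 intensity of each array minus the control mean (vertical axis) for the 12 leading genes with higher and the 12 with lower values after GEM (horizontal axis). Grey points are the 4 control arrays and orange points the 4 GEM arrays. The genes were taken for groups that do not overlap, from Etnppl at 0.99 above to Ifit3 at a difference of -1.0 from the control mean.

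All 21 measured genes of the type I interferon response had lower means after GEM, whereas 50.8 percent of all genes did. Their median difference was -0.38, beside -0.0025 over all genes, and 9 had an unadjusted p under 0.05 (42.9 percent, beside 2.97 percent of all genes). In 5 of the 21 the groups did not overlap, beside 1.84 percent of all genes that were lower without overlap. These were Ifit1, Ifit3, Irf7, Usp18 (-0.66), which removes the ubiquitin-like Isg15 from proteins, and Mx2 (-0.22), an antiviral GTPase. None passed adjustment. With 1 array left out the median ran from -0.51 without control replicate 3 to -0.21 without control replicate 1. Ifit1, of the same family as Ifit3, read 7.49, 6.89, 6.59 and 7.72 in control and 6.36, 6.34, 6.05 and 5.93 in GEM tumors, a difference of -1.0 (limma adjusted p 0.691). Irf7, the master regulator of type I interferon, read 7.58, 7.01, 6.85 and 7.53 in control and 6.68, 6.58, 6.57 and 6.46 after GEM, a difference of -0.67. Control replicates 1 and 4 held the highest values of both genes. The mean over the list was 8.14, 7.48, 7.36 and 8.12 in the control arrays and 7.24, 7.49, 7.24 and 7.36 in the GEM arrays.

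Genes of the interferon gamma response also lay lower in all 16 cases, with a median of -0.63, but none reached an unadjusted p under 0.05. The mean of the list was 9.70, 7.92, 8.34 and 9.99 in the control arrays and 7.73, 9.41, 8.22 and 8.11 in the GEM arrays. Control replicates 1 and 4 and GEM replicate 2 were the high ones, so the groups overlapped widely. The median was -0.99 without GEM replicate 2 and -0.30 without control replicate 4. Ido1, which degrades tryptophan, had the lowest difference at -1.18, from 8.98, 6.24, 6.98 and 9.29 in control to 5.96, 8.37, 6.42 and 6.01 in GEM tumors. The guanylate-binding protein gene Gbp2 differed by -0.74, the GTPases Iigp1 and Irgm1 by -1.09 and -0.52, and the transcription factor Irf1 by -0.31.

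The 11 MHC class I genes all lay lower (median -0.30), with H2-K1 at -0.29, B2m at -0.29 and the proteasome activator Psme1 at -0.25, the only 1 with an unadjusted p under 0.05. The list's mean was 10.88, 9.72, 9.89 and 11.07 in control and 9.62, 10.54, 9.81 and 9.94 in GEM arrays, high in control replicates 1 and 4 and in GEM replicate 2. All 10 MHC class II genes lay lower too (median -0.52). Their mean was 9.22, 8.37, 8.24 and 9.28 in control and 8.01, 8.29, 8.27 and 8.57 in GEM arrays, where GEM replicate 4 was the highest. An unadjusted p under 0.05 was reached by 3 (30.0 percent, beside 2.97 percent of all genes). These were H2-Oa (-0.48), a chaperone subunit of peptide loading, the class II transactivator Ciita (-0.51) and H2-Ob (-0.56). The H2-Ob probe set was dim, with means of 3.80 in control and 3.23 in GEM arrays. H2-Oa read 5.96, 5.45, 5.38 and 5.73 in control and 5.14, 5.01, 5.13 and 5.32 after GEM, without overlap. The abundant class II genes H2-Aa and Cd74 differed by -0.54 and -0.60 with overlapping arrays.

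**Figure D2:**
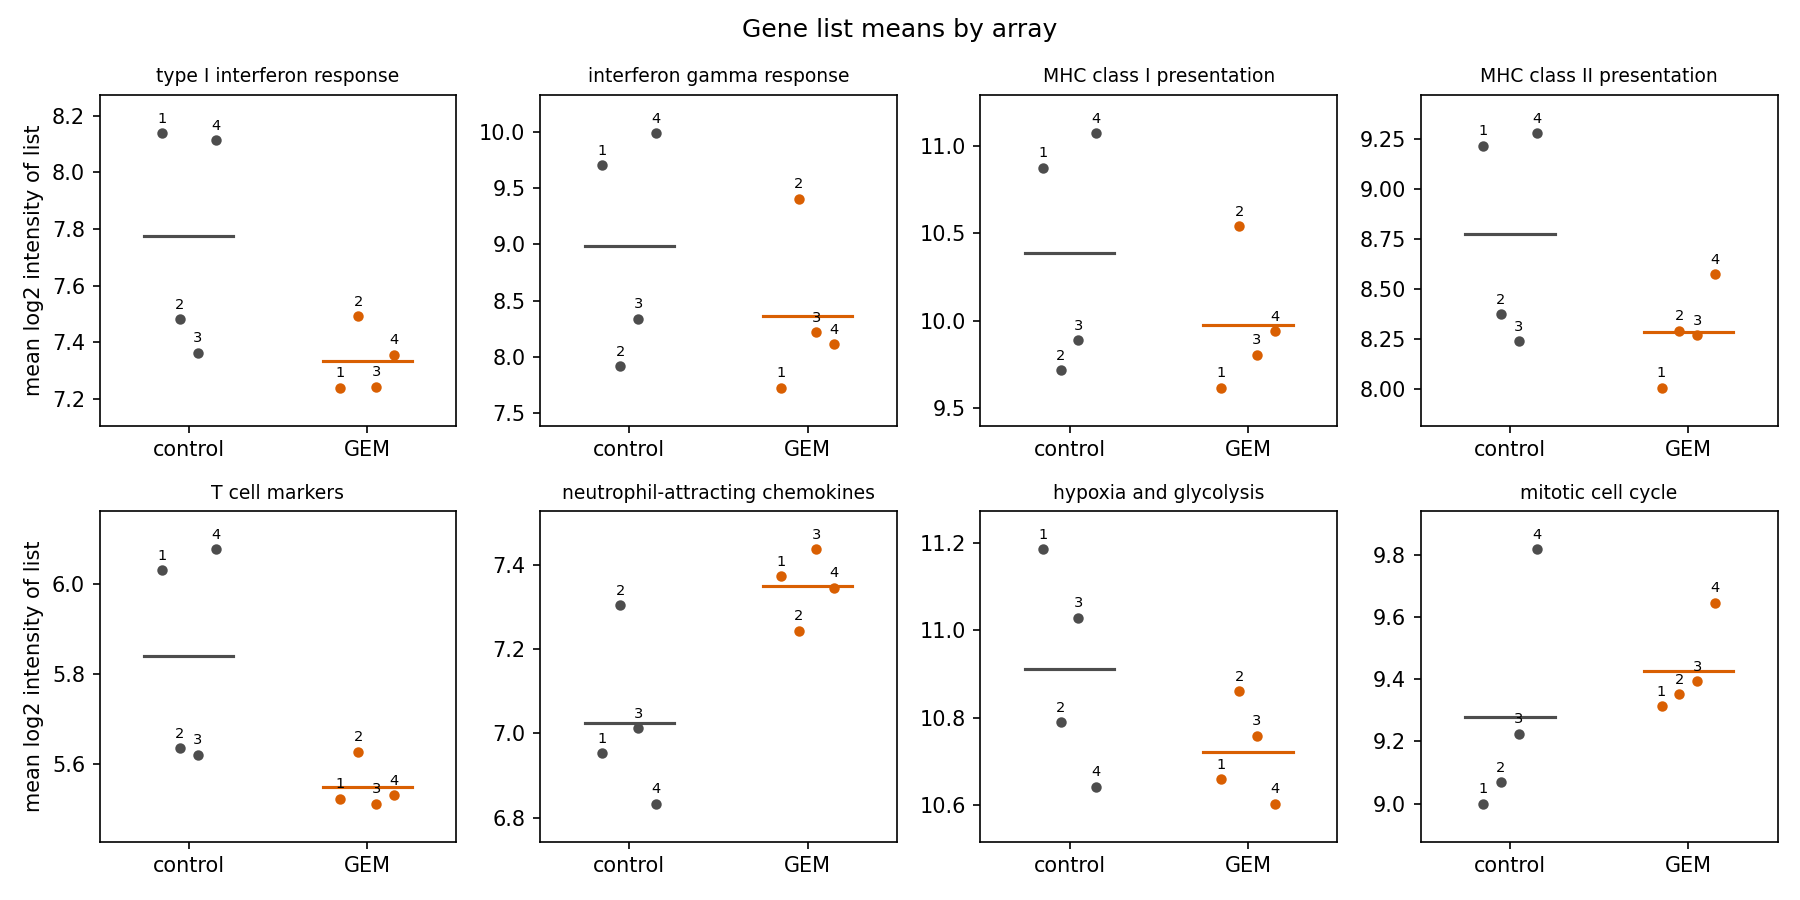
Mean log2 intensity of 8 gene lists (vertical axes) in each control and GEM array (horizontal axis). Points are arrays with their replicate number and bars are group means. The interferon, MHC and T cell lists are highest in control replicates 1 and 4, and GEM replicate 2 is the highest GEM array for interferon gamma, at 9.41.

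T cell markers lay lower in 19 of 21 genes (median -0.20), beside 50.8 percent of all genes. Of these markers, 6 were lower with an unadjusted p under 0.05 (28.6 percent, beside 2.97 percent of all genes). Cd3g and Cd3d encode invariant chains of the T cell receptor complex. Cd3g read 7.10, 5.01, 5.57 and 7.39 in control and 4.82, 5.42, 4.40 and 4.89 in GEM tumors, a difference of -1.39, and Cd3d read 7.17, 6.02, 6.36 and 7.54 against 5.51, 6.08, 5.68 and 5.98, a difference of -0.96. Control replicates 1 and 4 set much of both differences, since control replicate 2 lay within the GEM range and control replicate 3 just above it. Cd3e differed by -0.20, and Cxcr6, a receptor of tissue T cells, by -1.02. In the other direction lay Bcl11b (0.39), a T lineage transcription factor, and Ccr7 (0.21), a homing receptor for lymph nodes, whose groups did not overlap at 5.58, 5.64, 5.51 and 5.53 against 5.67, 5.76, 5.78 and 5.89.

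Genes of regulatory T cells and checkpoints lay lower in 10 of 13, and 6 were lower with an unadjusted p under 0.05 (46.2 percent, beside 2.97 percent). Ikzf2, of the same list, was higher with an unadjusted p under 0.05, at 0.16 without overlap. Foxp3, which defines regulatory T cells, did not reach that p, with values of 4.66 to 5.09 in control and 4.82 to 5.31 in GEM arrays. The inhibitory receptor gene Pdcd1 read 5.06, 4.36, 4.62 and 5.69 in control and 4.21, 4.54, 4.12 and 3.96 after GEM, a difference of -0.72. Btla, another inhibitory receptor, differed by -0.82, Havcr2 by -0.38 and the interleukin-2 receptor chain Il2ra by -0.24, the last 2 without overlap, although a second probe set of Il2ra gave 0.06.

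The cytotoxic genes were divided. Gzmc, a granzyme of activated killer cells, had the lowest p of the list, at 5.72, 6.91, 5.6 and 5.00 in control and 7.44, 7.80, 7.53 and 7.71 in GEM tumors. The difference was 1.81 (SE 0.33, limma adjusted p 0.459), a 3.51-fold higher mean, without overlap. Gzmd read 5.81, 8.82, 6.96 and 5.03 in control and 8.94, 8.86, 8.77 and 8.93 after GEM, a difference of 2.22 (limma adjusted p 0.786). Gzme read 7.21, 8.72, 7.38 and 6.87 against 8.67, 8.52, 8.59 and 9.03, a difference of 1.16.

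Control replicate 2, the array with the skin genes, was the highest control array for each of these granzymes and alone made Gzmd and Gzme overlap. Without it Gzmc differed by 2.18 with a limma adjusted p of 0.0182, and Gzme (1.55, 0.0423) and the neighboring Gzmf (2.22, 0.0181) passed as well. So did a probe set that Gzmd and Gzme share (1.72, 0.0242), Ceacam1 (1.11, 0.0483), an adhesion receptor, and, lower after GEM, a probe set of the death ligand gene Fasl (-0.92, 0.0423). The brighter probe sets of Ceacam1 and Fasl differed by 0.31 and -0.32 over all arrays. Whether skin in the sample has a part in that array's granzyme values was not tested. The probe sets used for Gzmd and Gzme are of the cross-hybridizing kind, although a second Gzmd probe set that is not gave 2.32, and the genes are near-identical neighbors, so their signals cannot be assigned to 1 gene with certainty. Gzmb, the granzyme of cytotoxic lymphocytes at large, differed by 0.52 and perforin (Prf1) by 0.21, whereas 11 of the 18 cytotoxic genes lay lower, down to -0.98 for Nkg7. The list's median was -0.09 and its mean 0.25, which differ in sign, and the median was 0.02 without control replicate 4.

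**Figure D3:**
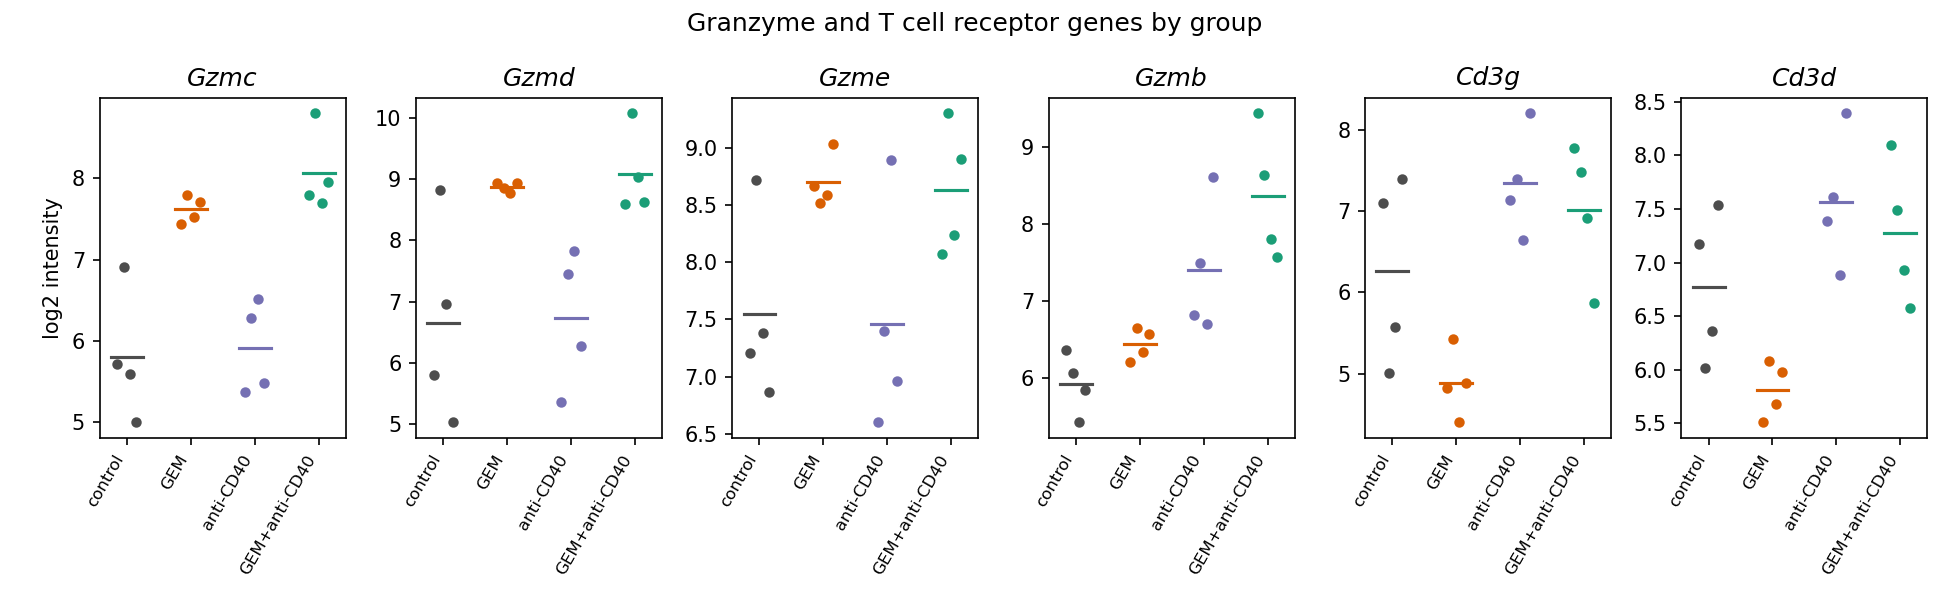
Log2 intensity (vertical axes) of 4 granzyme genes and 2 T cell receptor genes in all 4 treatment groups (horizontal axis). Points are arrays and bars are means of 4 arrays. Gzmc lies at 7.44 to 7.80 after GEM and at 5.00 to 6.91 in control, while Cd3g and Cd3d are lower on average after GEM than in control.

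Dendritic cell genes lay lower in 11 of 13 (median -0.14, and -0.03 without control replicate 4), led by Flt3, the receptor on which these cells depend. Flt3 read 5.47, 5.43, 5.45 and 5.62 in control and 5.28, 5.22, 5.25 and 5.24 after GEM, a difference of -0.24 without overlap (limma adjusted p 0.753). Xcr1, which marks cross-presenting dendritic cells, differed by -0.36, at dim means of 4.38 in control and 4.025 in GEM arrays. Macrophage markers lay lower in 12 of 16 (median -0.20) and none had an unadjusted p under 0.05, with Csf1r at -0.17 and Adgre1 at -0.29. B cell and plasma cell genes had a median of -0.01. The 13 granulocytic genes divided into 7 above and 6 below 0 (median 0.02), and none reached an unadjusted p under 0.05.

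Chemokines for neutrophils stood apart from that granulocytic list. Their means lay higher in 8 of 9 genes (median 0.29), and 4 had an unadjusted p under 0.05 (44.4 percent, beside 3.34 percent of all genes). Cxcl3 read 7.07, 7.17, 6.92 and 7.0 in control and 8.18, 7.99, 8.19 and 7.64 in GEM tumors, a difference of 0.96 (limma adjusted p 0.158). It passed without GEM replicate 4 (limma adjusted p 0.0491) and with GEM replicates 3 and 4 averaged as 1 mouse (0.0307). Cxcl1 read 9.22, 9.52, 9.16 and 9.19 against 9.63, 9.63, 9.70 and 9.60, a difference of 0.37. Both genes were separated between groups, but 1 of the 3 probe sets of Cxcl1 gave only 0.12.

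Ppbp, a platelet chemokine, differed by 0.85 and Cxcl5 by 0.28. The chemokines for monocytes and T cells were split, with Ccl9 (0.61) and Ccl2 (0.20) higher and Ccl3 (-0.67), Ccl4 (-0.37) and Ccl7 (-0.33) lower. Ccl3 read 6.33, 6.09, 5.72 and 6.26 in control and 5.57, 4.91, 5.71 and 5.54 after GEM, just short of overlap. Among inflammatory macrophage genes Tnf differed by 0.21 without overlap, the formyl peptide receptor gene Fpr2 by 0.44 and Nos2 by -0.21, and Arg1, an alternative-activation gene, differed by 0.38. Complement genes lay lower in 8 of 10 (median -0.32), with the C1 inhibitor gene Serping1 at -0.78.

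The genes that handle GEM itself were near 0. The kinase gene Dck, which activates the drug, read 10.10, 10.19, 10.10 and 10.50 in control and 10.15, 10.14, 10.27 and 10.34 in GEM tumors, and its difference was 0.00 (SE 0.10). The transporter gene Slc29a1 differed by 0.01 (SE 0.09), with 8.5, 8.68, 8.53 and 8.86 against 8.56, 8.62, 8.65 and 8.76. With these SEs the differences of both genes were not distinguishable from 0. Of the deaminases, Cda differed by -0.23 and Dctd by 0.17, the only one of 14 uptake and metabolism genes with an unadjusted p under 0.05. The drug's target genes Rrm1 and Rrm2 differed by 0.06 and 0.08. Of the other pyrimidine genes, Ctps, the CTP synthase, differed by 0.17 and Umps, of de novo UMP synthesis, by 0.12 without overlap.

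Proliferation genes lay slightly higher as a group. Means were higher in 24 of 26 DNA replication genes (median 0.09) and in 23 of 24 mitotic genes (median 0.17), as against 49.2 percent of all genes, but no more than 1 gene in the first list and 0 in the second had an unadjusted p under 0.05. The mitotic list averaged 9.0, 9.07, 9.22 and 9.82 in control and 9.31, 9.35, 9.39 and 9.65 in GEM arrays, so that control replicate 4 was the highest of all 8, and the median was 0.06 without control replicate 1 and 0.34 without control replicate 4. Among members, the replication factor genes Mcm2, Pcna and Orc1 differed by 0.10, 0.07 and 0.23, the kinesin gene Kif20a by 0.28 and Mki67, the Ki67 antigen, by -0.02. The checkpoint kinase gene Chek1 had the largest difference of the 25 DNA damage genes, of which 19 lay higher. It read 8.26, 8.26, 8.44 and 8.67 in control and 8.61, 8.69, 8.75 and 8.79 after GEM, a difference of 0.30 (limma adjusted p 0.786), with its 5 probe sets from -0.02 to 0.30. Rad18 differed by 0.19 and Ddb2 by 0.23.

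Targets of p53 divided evenly, 11 above and 10 below 0, in a line whose p53 is mutant. Cdkn1a, the p21 inhibitor of the cell cycle, read 9.52, 9.17, 9.04 and 8.66 in control and 8.64, 8.76, 8.85 and 8.81 in GEM tumors, a difference of -0.33. Bbc3, the death-promoting PUMA, differed by -0.20 without overlap, at 7.62, 7.66, 7.69 and 7.78 against 7.37, 7.54, 7.49 and 7.57. Of the senescence list Cdkn2a differed by 0.22. Apoptosis regulators had a median of 0.01, with Bcl2, a survival gene, and Casp8, the initiator caspase of death receptors, both at 0.18 without overlap, although the other 4 probe sets of Bcl2 gave 0.00 to 0.14. The necroptosis kinase gene Ripk3 differed by 0.44 and the death receptor gene Fas by -0.31.

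Hypoxia and glycolysis genes lay lower in 18 of 19 (median -0.16), and 3 had an unadjusted p under 0.05 (15.8 percent, beside 2.97 percent of all genes). Pdk1, which holds pyruvate back from mitochondria, read 11.01, 10.79, 11.08 and 10.85 in control and 10.69, 10.68, 10.54 and 10.62 after GEM, a difference of -0.30 without overlap (limma adjusted p 0.757). The mitophagy gene Bnip3 differed by -0.38, Ndrg1 by -0.42 and the glucose transporter gene Slc2a1 by -0.38. The list averaged 11.19, 10.79, 11.03 and 10.64 in control and 10.66, 10.86, 10.76 and 10.60 in GEM arrays, so control replicates 2 and 4 lay within the GEM range. The median was -0.29 without control replicate 4 and -0.05 without control replicate 1. The stress genes of the unfolded protein response lay lower in 15 of 18 (median -0.06), with no gene at an unadjusted p under 0.05. Oxidative phosphorylation, fatty acid and cholesterol synthesis had medians of -0.01, -0.01 and -0.02, and Mvk of the last had the lowest value, -0.19.

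Epithelial genes of the tumor lay higher in 11 of 15 (median 0.15). Epcam, an adhesion molecule of epithelium, read 11.11, 11.78, 11.28 and 10.90 in control and 12.19, 12.34, 11.70 and 11.84 in GEM tumors, a difference of 0.75 with slight overlap, and its second probe set gave 0.20. The mucin and trefoil genes were divided. Muc5ac, a gel-forming mucin, read 8.09, 7.92, 7.72 and 7.20 against 6.58, 7.20, 6.83 and 6.41, a difference of -0.98. Tff3 differed by -0.47, and Agr2, which folds mucins, by 1.11.

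Lgr5, a stem cell receptor and Wnt target, read 5.98, 6.93, 6.23 and 5.58 in control and 7.24, 8.05, 7.63 and 6.89 after GEM, a difference of 1.27 (limma adjusted p 0.739). Only control replicate 2 and GEM replicate 4 overlapped, by 0.04, and a second probe set of Lgr5 gave 0.13. The Wnt list as a whole had a median of 0.04, with Rnf43 at 0.30 and Nkd1 at -0.21, both feedback inhibitors and both without overlap. Of the genes driven by MEK and ERK, 13 of 17 lay higher (median 0.09), with Egr1 at 0.43 and the growth factor gene Ereg at 0.31. Egr1 was uneven, at 10.17, 11.87, 10.56 and 10.65 in the GEM arrays and 9.66 to 11.22 in control. Among immediate early genes Ier2 differed by 0.22 without overlap.

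TGF-beta related genes showed small differences, with Tgfb2 at 0.28 without overlap, Pmepa1 at 0.22 and Ccn2 at 0.17. Ptgds, a prostaglandin D synthase, differed by -0.41 along with the transporter Slco2a1, whereas the median of the 18 prostaglandin genes was 0.02. Of the antioxidant genes Gstm1 differed by -0.34 without overlap and Nqo1 by 0.41. Markers of mesenchymal change had a median of -0.12, with Vim at -0.12 without overlap, Axl at -0.28 and Fn1 at 0.25.

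Hemoglobin probe sets that several genes share lay lower after GEM, though none passed adjustment over all 8 arrays, and are left out of the gene counts because no single gene can be named from them. The annotation gives 3 of them to both adult alpha globin genes and 1 to the beta globin genes. The brightest alpha globin probe set read 11.09, 10.82, 10.59 and 11.1 in control and 9.06, 8.83, 8.12 and 10.43 in GEM tumors, a difference of -1.79 (SE 0.40, limma adjusted p 0.688). The beta globin probe set read 10.4, 10.23, 10.19 and 10.42 against 8.83, 8.79, 8.18 and 9.93, a difference of -1.38.

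The groups did not overlap in any of the 4. In each, GEM replicate 4 was the GEM array closest to control and GEM replicate 3 the farthest from it. Over all 8 arrays the limma adjusted p of the 4 was 0.62 to 0.747. With GEM replicates 3 and 4 averaged as 1 mouse all 4 passed, at differences of -1.42 to -1.86 and limma adjusted p of 0.0123 to 0.0418, together with Tcf24 and Cxcl3. For the hemoglobin probe sets that averaging joins the lowest and the highest GEM array and so removes most of the group's spread. Their passing there cannot be read as added support. The 11 hemoglobin probe sets given to 1 gene, with group means of 2.71 to 7.03, differed by -0.28 to 0.24. The lowest of them, of Hbb-b2, did not overlap between groups, nor did another probe set of Hbb-b2 (-0.19). Other red cell genes differed by less, with Alas2, of heme synthesis, at -0.16, the anion exchanger gene Slc4a1 at -0.05 and Epb42, of the membrane skeleton, at -0.08. With anti-CD40 the 4 shared probe sets differed by -0.48 to -1.0, at an unadjusted p of 0.228 to 0.426. Red cells, their precursors and the blood left in a tumor were not measured apart.

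Stromal lists lay near 0, with medians of -0.03 for fibroblasts, 0.03 for collagens and 0.04 for endothelial cells. Col1a1 differed by 0.22, and Col11a1, a minor fibrillar collagen, by -0.80, at 5.10, 5.80, 4.60 and 5.85 in control and 4.49, 4.34, 4.63 and 4.68 after GEM. The vascular transcription factor gene Sox17 differed by 0.53 and the smooth muscle myosin gene Myh11 by 0.26. Lpl, the lipase of fat and muscle capillaries, differed by 0.51 without overlap, beside 0.07 for the median of the adipocyte list. Skeletal muscle genes lay lower in 16 of 16 (median -0.45, none at an unadjusted p under 0.05), with list means of 5.55, 6.65, 6.81 and 7.56 in control and 5.49, 5.82, 5.17 and 7.85 in GEM arrays, which overlapped. Their median was -1.02 without GEM replicate 4 and -0.11 without control replicate 4.

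**Figure D4:**
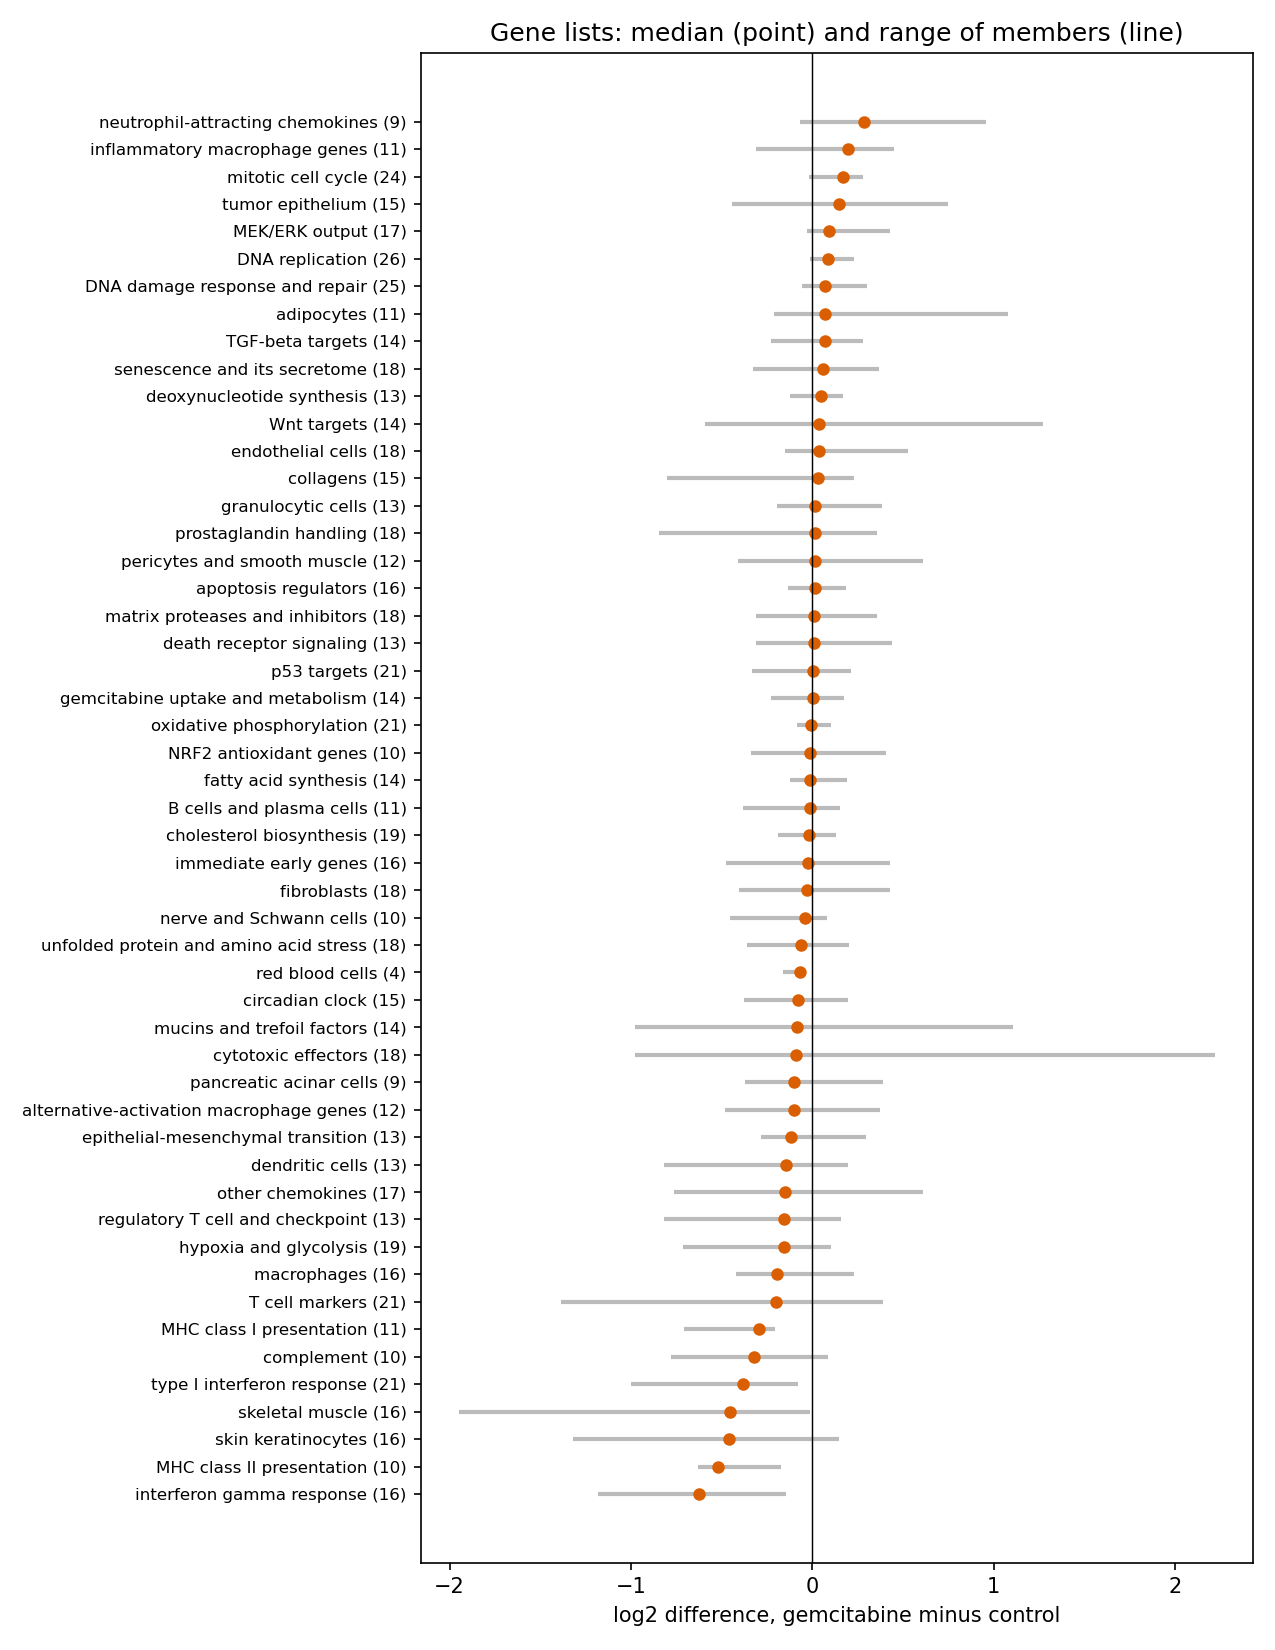
Log2 difference, GEM minus control (horizontal axis), of 51 gene lists (vertical axis, number of measured genes in brackets). Points are list medians and lines run from the lowest to the highest member. Interferon gamma response is lowest at -0.63 and neutrophil-attracting chemokines highest at 0.29, while the lists for GEM uptake and for oxidative phosphorylation sit close to 0.

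The same drug contrast was examined in the 8 arrays of mice given anti-CD40 antibody, which share no array with the comparison above. No probe set passed adjustment there either in limma, where 770 were higher and 1302 lower with a p under 0.05 before adjustment. Over genes the balance was the other way, with 2.19 percent higher and 1.41 percent lower, and the interaction of both treatments passed in 0 probe sets (2359 at an unadjusted p under 0.05, smallest adjusted p 0.89). Of the 12 leading higher genes, 10 lay higher with anti-CD40 too, where 52.1 percent of all genes did, and 3 had an unadjusted p under 0.05, namely B4galnt4 (0.41), Etnppl (0.62) and Cxcl3 (0.74). The 10 include Shf and Ggh, which were near 0 (0.015 and 0.008), and Tcf24, at 0.13 (limma unadjusted p 0.412). Of the 12 leading lower genes Ifit3, Slco2a1 (-0.12), Pkhd1 (-0.25) and Cyth3 (-0.01) lay lower, that is 4, and none had an unadjusted p under 0.05. The granzymes lay higher again, Gzmc by 2.15, Gzmd by 2.35 and Gzme by 1.17, whereas Ifit3 differed by -0.13. The type I interferon list was not lower there, with a median of 0.035, 13 of 21 genes above 0 and 0 at an unadjusted p under 0.05. The interferon gamma list had a median of 0.43, with 16 of 16 genes above 0 and 0 at an unadjusted p under 0.05. Its mean was 10.02, 9.99, 9.73 and 10.39 with anti-CD40 alone and 11.39, 10.79, 9.78 and 10.01 with GEM added, so the groups overlapped. Mitotic genes lay lower in 21 of 24 (median -0.16), 0 of them at an unadjusted p under 0.05. Over all genes 50.2 percent kept their sign between both settings, and the correlation across genes was -0.0038 (18193 genes of the same 16 arrays, which are not independent replicates).

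**Figure D5:**
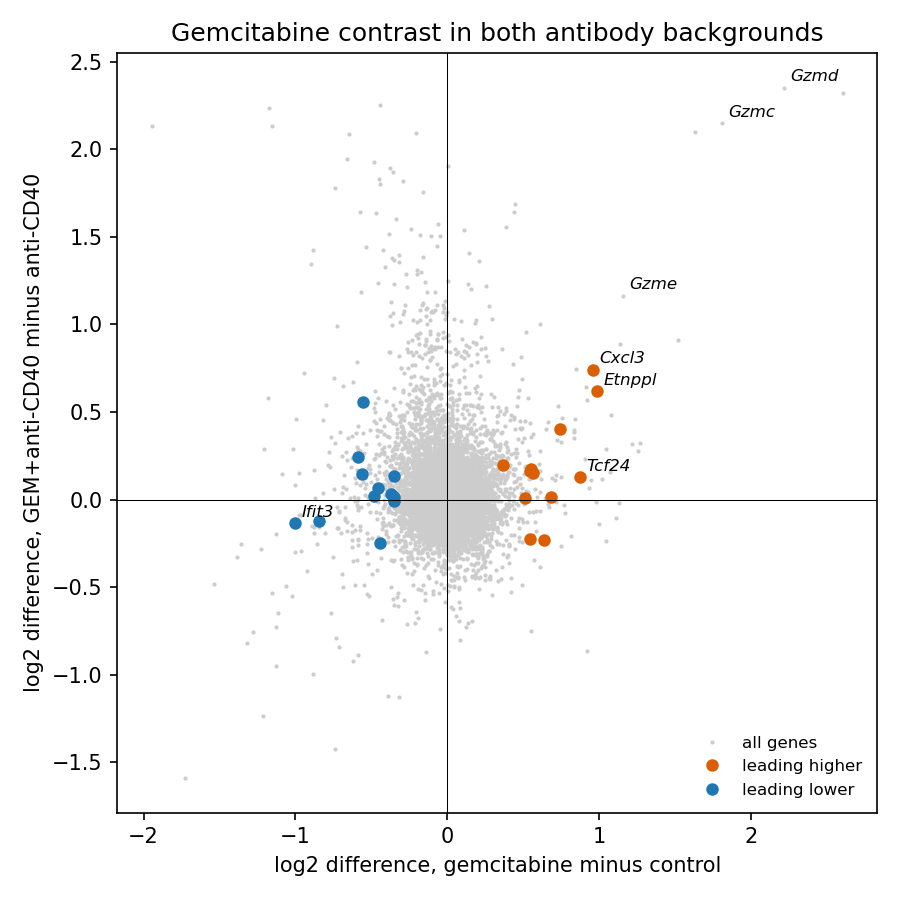
Log2 difference of GEM against control (horizontal axis) and of GEM with anti-CD40 against anti-CD40 alone (vertical axis) for 18193 genes in grey. Orange and blue points are the leading higher and lower genes. The granzyme genes lie far out on both axes, Gzmd at 2.22 and 2.35, while Ifit3 lies at -1.0 and -0.13.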

How the data were processed

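Total RNA of whole tumors was hybridized to Affymetrix mouse 430 arrays, and the authors deposited RMA values on the log2 scale, 1 column per array, per the labels. The version of the RMA software is not given in the sources used here. After removal of 64 spike-in and housekeeping controls, 45037 probe sets entered the tests with no intensity filter. A platform annotation gave 1 symbol for 34945, several for 932 and none listed for 9160, leaving 18193 genes, and a gene with several probe sets (9010 genes) takes its values from the brightest one on average over 16 arrays. Groups were compared on their 8 arrays with limma 3.58.1 in R 4.3.3, without covariates, two-sided and with Benjamini-Hochberg adjustment over the 45037 probe sets, and the fit was tested on simulated data. Standard errors are limma's. The number of arrays limits the precision, and intensities of different probe sets are not comparable.

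The 51 gene lists and the members described were chosen with earlier results of these data known. Genes are named by a rule that takes the 12 smallest p in each direction among genes whose groups do not overlap, and in each list the first 2 measured genes and up to 3 with the smallest p. Where 5 or fewer genes are counted they are named. The highest or lowest member of some lists was added after its values were seen, as were second and shared probe sets, Cxcr6, Ceacam1, Fasl and Cela1. Promoter windows are the first RefSeq entry of a symbol, and the motif letters were set after longer forms had been searched. Alternatives covered scaling, filters, variance models, array weights, probe set choice, a replicate block, GEM replicates 3 and 4 as 1 mouse, and each array left out.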

Additional observations from a re-analysis of the deposited data

Results flagged for a closer look

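Each group of 4 arrays was examined for 1 array lying far from the other 3, by the gap to its nearest neighbor divided by the range of the group, against Dixon's critical value for 4 values. About 1 in 20 groups would pass by chance, and 21 of 362 passed. In brackets stand the ratio and the log2 intensity of the array that stood apart.

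Skin keratinocyte genes set control replicate 2 apart (0.939, list mean 8.18) and GEM replicate 4 (0.892, 6.12). Control replicate 2 was also high for Cxcl1 (0.833, 9.52). Control replicate 1 was low for Csgalnact1 (0.867, 7.18), and control replicate 3 was low for Adgre1 (0.895, 7.10) and high for Tff3 (0.950, 7.63). Control replicate 4 was high for Dctd (1.0, 8.97) and the deoxynucleotide synthesis list (0.938, 9.26) and low for Ereg (0.944, 7.87). GEM replicate 4 was high for both subunit genes of ribonucleotide reductase, Rrm1 (0.839, 10.29) and Rrm2 (0.938, 12.11), and low for Bcl11b (0.929, 7.98).

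GEM replicate 1 was low for Ggh (0.893, 9.46) and Serping1 (0.887, 7.33) and high for the acinar list (0.853, 5.74). GEM replicate 2 was low for Nqo1 (0.936, 6.01) and high for the T cell list (0.831, 5.63), the apoptosis list (0.840, 9.26) and the immediate early list (0.841, 9.49). GEM replicate 3 was high for Kcnab1 (0.846, 8.91) and low for Ripk3 (0.935, 7.51). No difference between the GEM contrasts with and without anti-CD40 passed adjustment in limma, and 2359 probe sets had an unadjusted interaction p under 0.05.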

How the results depend on the processing

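The count of probe sets passing adjustment, 0 as analyzed, was 0 in the fit of all 16 arrays and after either rescaling, 1 with dim probe sets left out (Tcf24) or with array weights (Tcf24), 3 with the mean over probe sets of a gene (Tcf24, Cftr and B4galnt4), 4 with a trended and robust variance prior (these with Etnppl), and 6 with GEM replicates 3 and 4 averaged, namely Tcf24 and Cxcl3 above and 4 shared hemoglobin probe sets below 0. In those 4 the averaged arrays were the lowest and the highest GEM arrays. The count was 0 to 8 with 1 array left out, and 3 without control replicate 2 and GEM replicate 4 (Gzmf, Cxcl3 and the probe set Gzmd and Gzme share), chosen after seeing the data. A log2 difference of at least 1 was met by 61 probe sets without the adjusted p and by 0 with it. With dim probe sets left out 312 genes were lower at an unadjusted p under 0.05 and 189 lower without overlap. Scaling to the 75th percentile, which moved the median of all probe sets to -0.03, gave 399 higher and 936 lower genes with a p under 0.05 before adjustment, and 197 and 622 without overlap, so the even split of directions depends on scaling. Averaging GEM replicates 3 and 4 gave 569 and 548 without overlap, as fewer arrays make overlap rarer. With 1 array left out, genes at an unadjusted p under 0.05 numbered 493 to 872 higher and 412 to 765 lower, and those without overlap 493 to 861 and 494 to 785, and 950 and 881 without both arrays with skin genes. Of the leading genes 8 to 10 higher and 1 to 7 lower ones kept their sign with anti-CD40.

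Same-numbered control and GEM arrays did not deviate together (r of -0.142, -0.266, -0.0683 and 0.0448 across probe sets), and pairs with different numbers ran from -0.335 to 0.395. Whether same-numbered arrays share more than a number cannot be told from these values. With a replicate block 0 probe sets passed, while 602 genes were higher and 470 lower with a p under 0.05 before adjustment. Of 130 genes named, 125 kept their sign throughout, 24 leading genes included. The leading genes were taken for groups that do not overlap, so leaving out or averaging arrays could not turn their sign. The genes that changed sign lay near 0. Dck was -0.025 after 75th percentile scaling, -0.007 after quantile normalization, -0.024 with GEM replicates 3 and 4 averaged and -0.047 without the skin arrays, and Slc29a1 -0.022, -0.02, -0.014 and -0.02. Rrm1 and Rrm2 were -0.027 and -0.09 without the skin arrays. With 1 array left out Dck ran from -0.038 to 0.095, Slc29a1 from -0.042 to 0.078, Rrm1 from -0.012 to 0.14, Rrm2 from -0.08 to 0.137 and Mki67 from -0.092 to 0.144. The cause was not tested in any of these. Medians of 42 of 51 lists stayed within the spread between arrays in each setting. The 9 that did not, each in at least 1 setting, were the lists of cytotoxic effectors, B cells, Wnt targets, apoptosis, fatty acid synthesis, gemcitabine uptake, mesenchymal transition, inflammatory macrophages and p53 targets. Other medians also moved with 1 array left out, as given beside them.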

Other observations

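Clock genes lay lower in 11 of 15 (median -0.08), from -0.38 for Dbp, an output gene of the circadian clock, to 0.20 for Cry1, a repressor of it, and Tef, a related transcription factor (-0.19), was the 1 with an unadjusted p under 0.05. Matrix proteases and their inhibitors were divided, with 9 genes on each side of 0 and a median of 0.01. The 18 genes of senescence and its secretome had a median of 0.06, of which Cdkn2a, Cxcl1 and Ccl2 were higher and Ccl7 lower with a p under 0.05 before adjustment. The nerve list had a median of -0.04 and no gene at an unadjusted p under 0.05, nor had the red blood cell list of 4 genes (median -0.07), which holds none of the shared hemoglobin probe sets described above. No limma adjusted p in these lists was under 0.05.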
